A study of Mus musculus with 8 samples.

Results

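Idh1, Idh2, Idh3a, Idh3b and D2hgdh, 4 mouse isocitrate dehydrogenase genes and the gene of D-2-hydroxyglutarate dehydrogenase, were examined in a bisulfite sequencing series on lines with mutant or wild-type IDH. Every deposited region that lay in 1 of these 5 genes or within 5000 bp of it was taken, which gave 37 of the 220894 regions in the list; all 5 genes had at least 1, as did 87.9% of protein-coding genes. The 8 lines, established from mice of mixed C57Bl/6, 129 and FVB/n background, were 4 IDH mutant brain tumour lines, 2 IDH wild-type brain tumour lines labelled RAS glioma, and 2 IDH wild-type immortalized astrocyte lines, 1 of which expressed exogenous wild-type IDH1. All 8 carried N::TVA and Cdkn2alox/lox; the genotype of the mutant tumour lines and of the astrocyte lines also included Atrxlox/lox, which is not in the genotype given for the wild-type tumour lines, so that mutant and wild-type tumour lines differed in more than IDH. Both astrocyte lines carry PDGFA in their names. DNA was enriched with a mouse methylation capture kit before bisulfite sequencing. The values analysed are 1 list for all 8 lines together, with a position, a width and a score for each region. They hold no methylation level and no value of a single line, so mutant lines could not be set against wild-type lines at these genes, no value has a replicate error, and no test between groups was run.

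Isocitrate dehydrogenases turn isocitrate into 2-oxoglutarate. IDH1 does so in the cytosol and peroxisomes and IDH2 in mitochondria, both with NADP+ as the hydrogen acceptor, whereas IDH3 is the NAD+ dependent enzyme of the tricarboxylic acid cycle, built from a catalytic subunit (encoded by Idh3a) and a pair of further subunits (encoded by Idh3b and Idh3g). Mutant IDH1 or IDH2 found in human glioma makes D-2-hydroxyglutarate from 2-oxoglutarate, and D2HGDH, a mitochondrial flavoenzyme, turns it back. D-2-hydroxyglutarate competes with 2-oxoglutarate at dioxygenases, among them the TET enzymes that oxidize methylated cytosine.

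Bisulfite sequencing can read methylation at CpG dinucleotides, so the 250 bases before each listed gene start are shown. Every CpG is in capitals, to let the CpG density at each start be seen. The values used here do not say which of these CpGs were measured. Starts and sequences are RefSeq's on GRCm38.p6, which is mm10, and a listed start was given for 4 of the 5 genes. They lie at chr1:65186480-65186729 and chr1:65179143-65179392 for Idh1, at chr7:80115351-80115600 for Idh2 and at chr2:130284452-130284701 for Idh3b, all on the minus strand, and at chr1:93824990-93825239 for D2hgdh, on the plus strand. Each is printed 5′ to 3′ along the strand of its gene.
Idh1 upstream start: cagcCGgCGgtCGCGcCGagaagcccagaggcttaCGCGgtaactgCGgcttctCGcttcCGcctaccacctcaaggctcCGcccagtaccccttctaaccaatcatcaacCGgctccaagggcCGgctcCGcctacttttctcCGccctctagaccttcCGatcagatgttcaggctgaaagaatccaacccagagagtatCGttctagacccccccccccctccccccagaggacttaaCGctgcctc
Idh1 inner start: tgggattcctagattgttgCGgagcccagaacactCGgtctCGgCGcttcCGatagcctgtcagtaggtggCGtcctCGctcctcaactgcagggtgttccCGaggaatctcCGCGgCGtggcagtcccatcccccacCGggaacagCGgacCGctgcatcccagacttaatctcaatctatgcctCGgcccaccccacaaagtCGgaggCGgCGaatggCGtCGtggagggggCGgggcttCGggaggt
Idh2 start: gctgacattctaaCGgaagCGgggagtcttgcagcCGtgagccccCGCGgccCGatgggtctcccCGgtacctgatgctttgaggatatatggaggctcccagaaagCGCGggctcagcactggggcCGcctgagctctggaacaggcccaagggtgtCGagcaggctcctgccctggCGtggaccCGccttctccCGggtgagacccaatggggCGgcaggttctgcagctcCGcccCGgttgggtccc
Idh3b start: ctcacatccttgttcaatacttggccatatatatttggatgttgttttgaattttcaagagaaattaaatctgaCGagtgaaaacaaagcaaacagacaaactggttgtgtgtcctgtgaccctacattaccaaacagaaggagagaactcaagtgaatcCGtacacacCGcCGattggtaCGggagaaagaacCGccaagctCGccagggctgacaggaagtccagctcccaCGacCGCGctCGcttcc
D2hgdh start: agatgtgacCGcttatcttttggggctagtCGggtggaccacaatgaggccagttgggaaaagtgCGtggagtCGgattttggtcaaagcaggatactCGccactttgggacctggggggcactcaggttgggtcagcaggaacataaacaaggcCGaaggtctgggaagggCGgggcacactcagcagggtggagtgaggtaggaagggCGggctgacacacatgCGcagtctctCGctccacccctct
Counted with the 50 bases from the start onward, which are not shown, these windows of 250 bases before to 50 after the start held 23 CpGs at each Idh1 start, 20 at Idh2, 18 at Idh3b and 13 at D2hgdh. The median over 21263 such windows of protein-coding genes was 13, and 95.4% of them held at least 1 CpG, the motif CG, which reads the same on both strands. D2hgdh was thus at the median for CpG number, and the other windows were above it.

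Score and width moved together over the whole list, so each score was also expressed as its percentile among the other regions within 50 bp of the same width, called the width-matched percentile below: 90 would mean a score above that of 90% of the regions of like width. The score is the authors' own, a whole number of at least 100, and no source used here says what it counts. The 37 regions at the 5 genes had a median width of 610 bp (180 to 2280) and a median score of 528 (165 to 1797). Over all regions the median width was 460 bp and the median score 462. Their median width-matched percentile was 57.1 (95% binomial interval of the median 29.0 to 66.8), and that of all regions was 51.0. Of the 37 regions, 11 (29.7%, 95% Wilson interval 17.5 to 45.8) stood above the 75th percentile for their width, beside 20.9% of all regions and 19.7% of those in or within 5000 bp of a protein-coding gene, and 11 (29.7%) stood below the 25th, beside 23.1%. The interval holds the background share, but it is wide and treats regions of the same gene as independent. It therefore cannot decide whether the 5 genes as a set differ from the list, which was not tested. The intervals cover counting error only. Single regions ran between percentiles of 3.51 and 97.0, both at D2hgdh, and the gene medians from 23.6 to 68.6.

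**Figure D1:**
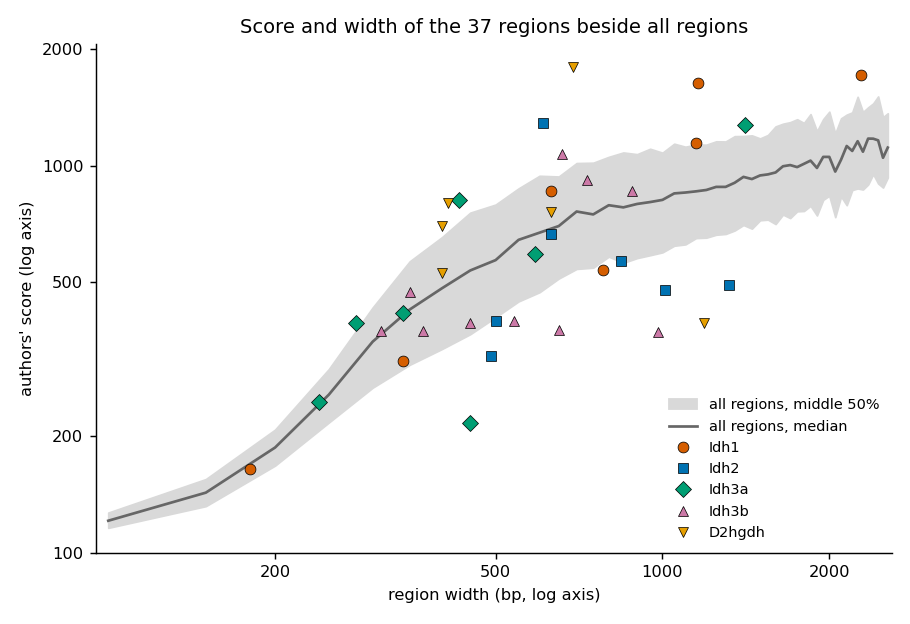
The authors' score of each region against its width in bp, both on log axes; coloured points are the 37 regions at the 5 genes, and the line and grey band are the median and middle 50% of all regions of like width. The regions with scores of 1797 (D2hgdh) and 1292 (Idh2) stand above the band at moderate widths, and the D2hgdh region with a score of 393 and the Idh3a region with a score of 216 stand below it.

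Idh1, the cytosolic enzyme and the gene named in the labels of the lines, had its high scores inside the gene at a second listed start and low ones at the upstream start. The gene lies on the minus strand of chromosome 1 (65158616 to 65186479, mm10), and 7 regions fell in or near it. The inner start, at 65179142, was flanked by a region of 2280 bp on its downstream side (65176821 to 65179100), with a score of 1715 and a percentile of 85.7 among 258 regions of like width. On its upstream side lay a region of 1160 bp (65179291 to 65180450) with a score of 1637 and a percentile of 93.9. The 190 bp between them, which hold the start itself, carried no region, and 16 of the 23 CpGs of that window lay outside any region. The upstream start, at 65186479, lay inside a region of 340 bp (65186271 to 65186610) with a score of 312 and a percentile of 29.0. Its downstream neighbour of 780 bp (65185371 to 65186150) had a score of 536 and a percentile of 22.2. The windows at both Idh1 starts held 23 CpGs, of which 11 lay inside a region at the upstream start and 7 at the inner start. Their regions differed in width as well as in score. The width-matched percentile was 29.0 at the upstream start, against 85.7 and 93.9 beside the inner one. Upstream of the gene, a region of 630 bp with a score of 860 and a percentile of 68.3 lay in Pikfyve, a lipid kinase gene on the opposite strand whose body begins 160 bp from that of Idh1. In the body, a region of 1150 bp (65169481 to 65170630) scored 1142, at a percentile of 76.5, and a region of 180 bp scored 165, at a percentile of 50.9. The last 10865 bp of the gene, from 65158616 to 65169480, held no region.

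Idh2, the mitochondrial counterpart, showed low scores for their width at 5 of its 7 regions and a high score at 1. The gene lies on the minus strand of chromosome 7 (80094845 to 80118608). Its listed start, at 80115350, lies inside the gene and not at its higher-numbered end, which no region covers. The start fell in a stretch of 600 bp with no region (80114871 to 80115470). On the upstream side a region of 1320 bp (80115471 to 80116790) scored 491, at a percentile of 8.86, and covered 10 of the 20 CpGs of the window printed above in part. On the downstream side a region of 1010 bp (80113861 to 80114870) scored 477, at a percentile of 12.2. Both were wide regions with scores near the median of the whole list, which is low for such widths. The exception was a region of 610 bp at 80111101 to 80111710, 3640 bp downstream of the start, with a score of 1292 and a percentile of 91.3. The other 2 regions in the body scored 396 (percentile 23.6) and 666 (percentile 47.3), and the 10480 bp between them held no region. In the flanks, a region of 490 bp inside Zfp710, a zinc finger gene, scored 323 (percentile 14.6), and a region of 840 bp outside any protein-coding gene scored 567 (percentile 24.1).

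Idh3a, the gene of the catalytic subunit of the NAD+ dependent enzyme, had 1 low region at its lower-numbered end and a high one directly next to it. It lies on chromosome 9 (54586511 to 54604662). The region across the lower-numbered end (54586071 to 54586520, 450 bp) scored 216, at a percentile of 4.57, and the next region into the gene (54586871 to 54588280, 1410 bp) scored 1271, at a percentile of 79.2. These neighbours had the lowest and the highest score of the gene. A region of 430 bp farther in (54593861 to 54594290) scored 817 and had the highest percentile of the gene, 83.6. Regions outside the gene on its lower-numbered side scored 416 and 393 (percentiles 54.0 and 78.3), a narrow one of 240 bp inside scored 245 (58.8), and 1 in the neighbouring acyl-CoA synthetase gene Acsbg1 scored 592 (41.0). The 10372 bp of the gene after the region at 54593861 held none.

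Idh3b, the gene of a second subunit of that enzyme, was the shortest of the 5 genes, at 5143 bp, and the most densely covered, with 45.9% of its length in regions against 11.5% to 20.7% in the other 4. It lies on the minus strand of chromosome 2 (130279309 to 130284451). Its start lay inside a region of 730 bp (130284101 to 130284830) that took in the whole window around the start, all 18 CpGs included, and scored 916, at a percentile of 66.8. This was the highest percentile of the 4 regions that cover a listed start of their own gene or, at Idh3a, its lower-numbered end. Directly downstream a region of 650 bp scored 376, at a percentile of 10.4, so that a high and a low region stood side by side here too. The highest score, 1073 (percentile 82.1), belonged to a region of 660 bp (130279121 to 130279780) that spans the end of Idh3b and the end of Nop56, the gene of a small nucleolar ribonucleoprotein, whose bodies share 5 bp. The other 2 regions in Idh3b scored 396 and 471 (percentiles 19.6 and 62.0). In all, 6 of the 10 regions counted for Idh3b touch Nop56, and the 5 of these in the flank scored from 372 to 858 (percentiles 5.0 to 57.8).

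D2hgdh, whose product removes D-2-hydroxyglutarate, held both the lowest and the highest percentile of all 37 regions. It lies on the plus strand of chromosome 1 (93823195 to 93853857), and its 6 regions all lay inside it. Its listed start, at 93825240, lies inside the gene and not at its lower-numbered end. The start lay in a region of 1190 bp (93824881 to 93826070) that took in the whole window around it with its 13 CpGs. That region scored 393, at a percentile of 3.51. At 4251 bp downstream of the start, a region of 690 bp (93829491 to 93830180) scored 1797, at a percentile of 97.0, the highest score at any of the 5 genes. The region between them (93827831 to 93828240, 410 bp) scored 800, at a percentile of 85.8, so the first region past the start region was already high for its width. Farther in, regions scored 757 and 697 (percentiles 57.9 and 79.3), and 1 upstream of the start scored 528 (57.8). The 12490 bp from 93833181 to 93845670 held no region.

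**Figure D2:**
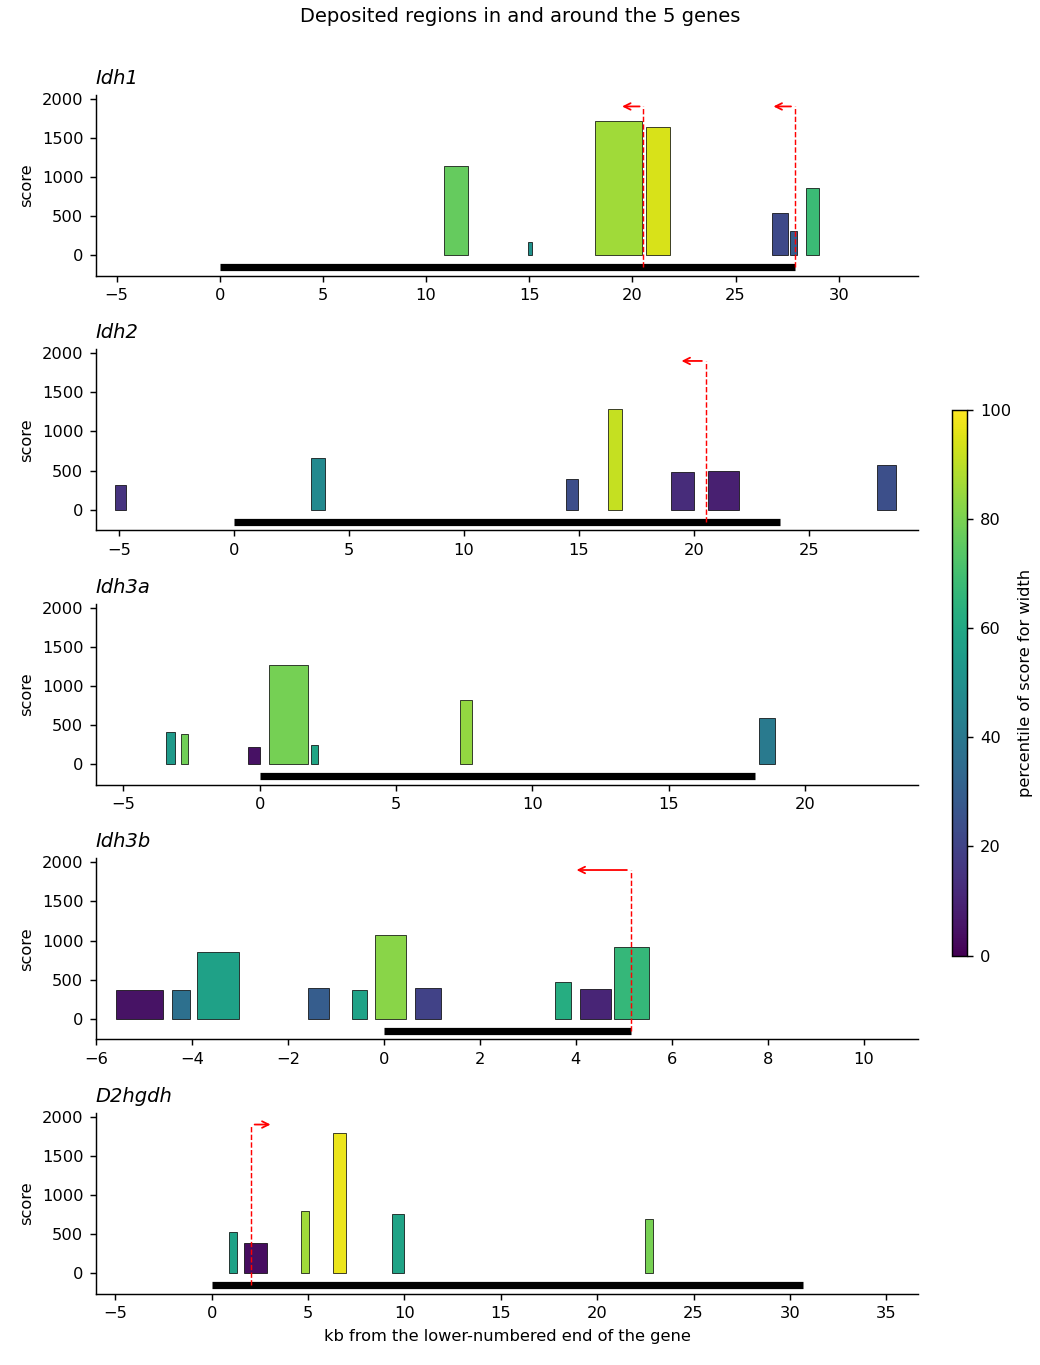
Regions in and within 5000 bp of each gene by distance in kb from its lower-numbered end, with a kb scale of its own in each panel; bar height is the authors' score, bar width the region's width and colour its width-matched percentile, the black line is the gene, and red dashed lines with arrows are the listed starts and their direction. The start of D2hgdh lies inside a region at a percentile of 3.51. The start of Idh2 lies between regions at 12.2 and 8.86, and the inner start of Idh1 between regions at 85.7 and 93.9.

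Set beside each other, the gene medians of the width-matched percentile ran from 23.6 at Idh2 through 46.8 at Idh3b, 58.8 at Idh3a and 68.3 at Idh1 to 68.6 at D2hgdh. Ranked among 16405 other protein-coding genes with at least 3 regions, Idh2 stood above 11.1% of them, Idh3b above 47.5%, Idh3a above 72.6%, Idh1 above 88.2% and D2hgdh above 88.7%. With 6 or 7 regions the 95% binomial interval of a gene's median spans all of its regions. For the 10 regions of Idh3b it ran from 10.4 to 66.8. The intervals of all 5 genes overlap, so no pair of these genes is separated, the lowest and the highest included. The rank of Idh3b moved most with the flank: it was 74.9% with a flank of 1000 bp, 77.8% with the gene alone and 27.2% with 10000 bp. Regions above the 75th percentile numbered 3 at Idh1, 3 at Idh3a, 3 at D2hgdh, 1 at Idh2 and 1 at Idh3b, and those below the 25th numbered 5 at Idh2, 3 at Idh3b and 1 at each of the others. Of all regions, 20.9% stood above the 75th and 23.1% below the 25th. Counts this small were not tested against those shares.

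**Figure D3:**
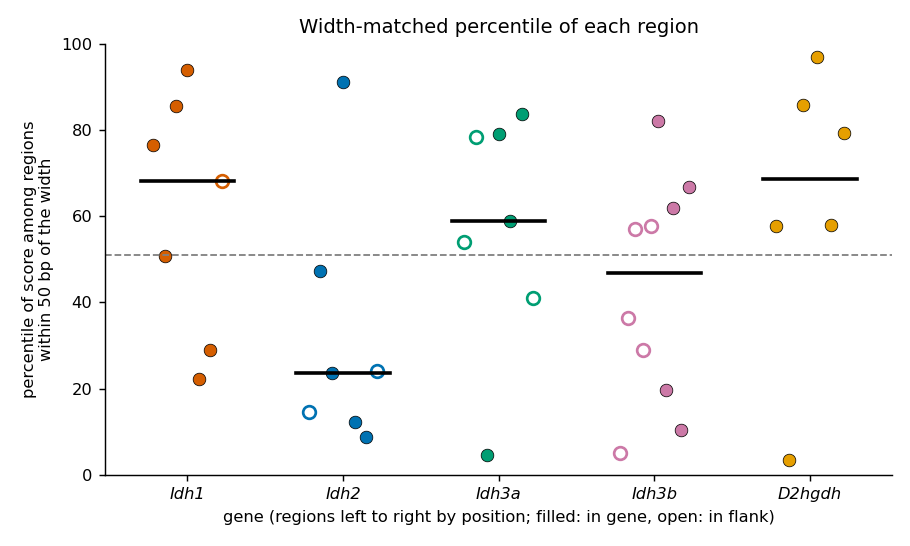
Width-matched percentile of the score of each region (vertical axis, 0 to 100) by gene, with regions from left to right by position; filled points lie in the gene, open points in its flank, black bars are gene medians and the dashed line is the median of all regions, 51.0. Each gene spans low and high percentiles, and 5 of the 7 Idh2 regions lie below 25, beside 23.1% of all regions.

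Distance from a gene start went with the percentile over the whole list, and the members were read beside that. Distances were taken to the nearest listed start of a protein-coding gene, or to either end of a gene with no listed start, as for Idh3a. Regions covering such a point had a median percentile of 33.9 over 8910 regions, and those at least 20000 bp away 53.9 over 107175. Of the 37 regions, 5 covered such a point, with percentiles of 3.51 (D2hgdh), 4.57 (Idh3a), 5.0 (the start of Nop56 in the flank of Idh3b), 29.0 (Idh1) and 66.8 (Idh3b). The 3 lowest percentiles of the whole set are therefore among these 5. The 11 regions from 1000 to 4999 bp away had a median of 62.0, beside 50.4 for all regions at that distance, and the 12 within 999 bp had 49.1, beside 41.2. Each region was then compared only with regions of like width and the same distance class. There the start region of D2hgdh stood at 6.98, that of Idh1 at 57.4 and that of Idh3b at 81.5. The region across the lower-numbered end of Idh3a, which has no listed start, stood at 17.0. The 2 regions beside the Idh2 start stood at 13.3 and 9.12 on that measure, and the pair beside the inner Idh1 start at 96.0 (among 50 regions) and 95.3. The start region of Idh1 was thus low beside all regions of its width and near the middle of those in its distance class.

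**Figure D4:**
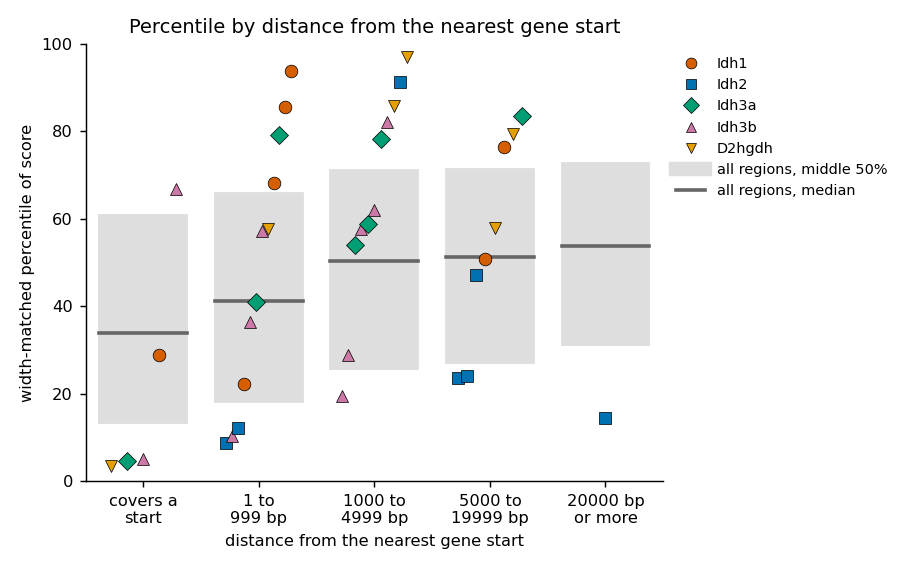
Width-matched percentile of the score by distance class from the nearest gene start; coloured points are the 37 regions at the 5 genes, and the line and grey box are the median and middle 50% of all regions in the class. The class that covers a start includes either end of a gene with no listed start, as for Idh3a. In it 3 of the 5 coloured points lie at or below 5.0, and the median of all regions is 33.9 there and 53.9 at 20000 bp or more.

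A region touched the promoter window of all 4 genes with a listed start, beside 60.3% of 17492 protein-coding genes. The share depends on CpG number. By window, 86.8% of those with 10 to 19 CpGs and 87.4% of those with 20 to 29 had a region. The windows of the 4 genes belong to these 2 classes, so a region at all 4 is near the share for such windows. The start itself lay inside a region at 3 of the 5 listed starts, beside 37.6% of 21263 starts. Of the 5 windows, 2 had a region (the one sharing most bases) below the 25th percentile, those of Idh2 and D2hgdh, beside 38.4% of all windows with a region, whose median percentile was 35.4. The number of CpGs in a window and the percentile of its region were almost unrelated across 12353 windows (Spearman rho = -0.05, a description across windows that can share a region or a gene). Windows of 20 to 29 CpGs, to which those of Idh1 and Idh2 belong, had a median percentile of 33.3, and windows of 10 to 19 CpGs, to which those of Idh3b and D2hgdh belong, 33.4.

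The surroundings of the genes were described in the same way. Within 1000000 bp of each gene, leaving out its own regions, the median percentile was 42.5 over 456 regions around Idh2, 54.1 over 141 around Idh1, 47.2 over 196 around D2hgdh, 52.3 over 239 around Idh3a and 45.2 over 260 around Idh3b. Idh2 thus lay in the surroundings with the lowest median of the 5. Against the 23.6 of Idh2, its neighbour Zfp710 had a median of 22.8 over 25 other regions, and Sema4b, a semaphorin gene on the other side, 45.2 over 24. Beside Idh1, Pikfyve had 62.0 over 4 other regions and D630023F18Rik 51.9 over 4. Ing5 and Gal3st2, on either side of D2hgdh, had 49.5 and 54.7 over 4 other regions each. Cib2 and Acsbg1 around Idh3a had 39.7 over 5 and 49.8 over 9, and Ebf4 beside Idh3b 38.4 over 16. The flank region of Idh3b just inside the 5000 bp limit, at 4609 bp, scored 372 with a percentile of 5.0, and the one just beyond it, at 5709 bp and counted for Nop56, scored 1740 with a percentile of 97.1. At Idh2 the regions just inside lay at 4675 and 4203 bp (percentiles 14.6 and 24.1) and those just outside at 6085 and 5173 bp (33.7 and 81.6). The nearest region beyond the limit was at 6790 bp on the other side of Idh3b (percentile 29.8) and at 9509 bp from Idh3a (percentile 38.4), and those around Idh1 and D2hgdh lay 17455 bp or more away.

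The rest of the pathway was read from gene groups of 17 tricarboxylic acid cycle genes and of 15 genes that handle 2-hydroxyglutarate or supply 2-oxoglutarate, beside the same values over all protein-coding genes. The gene medians of the 5 member genes had a median of 58.8, and 3 of 5 lay above 50. Of the cycle genes, 16 had at least 3 regions, with a median of 54.2 and 9 of 16 above 50; over all 16406 protein-coding genes with at least 3 regions the median was 48.2, and 46.3% lay above 50. The highest of the cycle were Sucla2, a succinyl-CoA ligase subunit (78.2), and Sdhd, a succinate dehydrogenase subunit (70.9), and the lowest Sdhb, another subunit of that enzyme (20.1), and Dlst, of the 2-oxoglutarate dehydrogenase complex (29.4). Idh3g, the third IDH3 subunit gene, on chromosome X, had a single region, of score 385 and percentile 1.04. In the second group the 15 genes had a median of 46.8, with 7 above 50. D2hgdh had a median of 68.6 over 6 regions, against 57.4 over 8 at Adhfe1, which can form D-2-hydroxyglutarate; the difference was not tested. The highest of that group were Glud1, glutamate dehydrogenase (70.5), and Psat1, a serine synthesis enzyme (59.6), and the lowest Gpt and Got2, both transaminases (15.7 and 18.8).

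**Figure D5:**
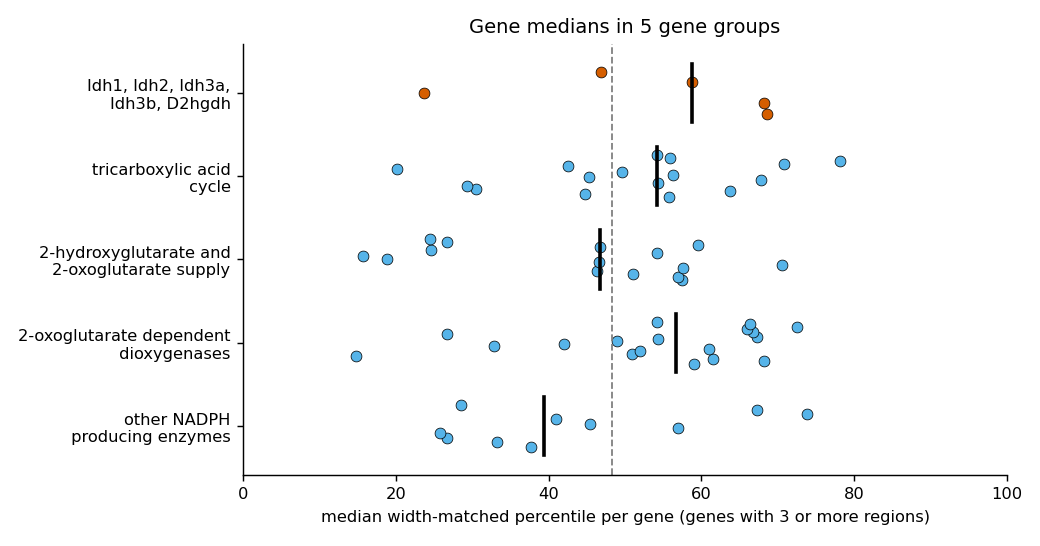
Median width-matched percentile per gene for genes with at least 3 regions, by gene group; each point is 1 gene, black bars are group medians and the dashed line is the median over all protein-coding genes, 48.2. The 5 member genes run from 23.6 to 68.6, within the range of the cycle genes, 20.1 to 78.2.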

How the data were processed

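Libraries of 8 lines were made by capture with a SureSelect Methyl-Seq kit for mouse and bisulfite sequencing, per the labels' protocols. The submitters' processing notes name Novoalign 3.7.1, Picard and the mm10 build. The region caller, its filters and the meaning of the score are not stated in these sources. The score was deposited by the authors as 1 whole number per region for the whole series; the depth of each line is unknown. The planned comparison of mutant with wild-type lines needs values per line and was not run.

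A region belonged to a gene if it overlapped the gene, extended by 5000 bp on each side, by 1 bp or more. Percentiles were taken among other regions within 50 bp of the width, ties counting as 0.5, where at least 20 existed (all but 166 regions). Of all regions, 20.9% exceeded the 75th percentile with comparison regions within 50 bp, 23.1% within 20 bp and 25.0% at exactly the same width. Genes, starts and promoters are RefSeq's on GRCm38.p6; 17492 of 21887 protein-coding genes had a listed start. The percentile code was tested on simulated data. Python 3.11.15, pandas 2.3.3 and scipy 1.17.1 were used. Gene groups (61 genes) and the genes named follow written rules: all members, the 2 highest and 2 lowest of each group with at least 3 regions, and genes next to or sharing a region with a member; Idh3g, Adhfe1 and Hif1an were named after their values were seen. A result on 1 gene of the groups is not reported here; group genes that are not named enter the counts and medians only. The members and groups were chosen with earlier results of these data known. Alternatives changed the flank, the width range, the comparison regions and the genes ranked.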

Additional observations from a re-analysis of the deposited data

How the results depend on the processing

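The number of regions was 26 with no flank, 29 with a flank of 1000 bp, 46 with 10000 bp and 28 without regions in another protein-coding gene, against 37. Over the planned settings the median percentile of the set ran from 50.8 to 59.2, the share above the 75th percentile from 29.7% to 38.5%, and the ranks among genes from 9.32% to 15.1% for Idh2, 27.2% to 77.8% for Idh3b, 60.3% to 88.5% for Idh3a, 80.5% to 89.0% for Idh1 and 87.7% to 92.1% for D2hgdh. Of 3 alternatives added after the data were seen, exactly the same width gave a lower set median (49.6) and a lower Idh3a rank (55.3%), the same distance class gave a lower rank for Idh2 (8.14%) and higher ones for Idh1 (93.0%) and D2hgdh (92.7%), and their other values, with those among genes with 6 to 10 regions, lay in the planned ranges as rounded here. The share of the set above the 75th percentile stayed at 29.7% with comparison regions within 20 bp and at exactly the same width. That of all regions rose from 20.9% within 50 bp to 23.1% within 20 bp and 24.98% at exactly the same width. The set therefore stood closer to the list under these narrower width ranges. None of the 79 alternative values left the 95% binomial interval of its main value or, for the number of regions, moved by over 1.5 times. For a rank, the gene's median percentile, not the rank, was set against that interval. These intervals are wide, and for every gene but Idh3b the interval spans all regions of the gene. A median of largely the same regions could hardly leave it, so this says little about stability. No paired analysis was possible because the list holds no value of a single line.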

Other observations

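Genes of 2-oxoglutarate dependent dioxygenases, the enzyme class that uses the product of isocitrate dehydrogenase as co-substrate, had a median of 56.7 for the width-matched percentile over the 18 of 19 genes with at least 3 regions, and 13 of the 18 lay above 50, beside 46.3% of all protein-coding genes. The highest were Tet1, a methylcytosine oxidase gene (72.5), and Alkbh3, a nucleic acid demethylase gene (68.1), and the lowest Egln2, a prolyl hydroxylase gene (14.8), and Kdm6b, a histone demethylase gene (26.7). Hif1an had 1 region, at a percentile of 23.5. By regions the group differed little from the list, with 21.9% of 269 regions above the 75th percentile, beside 20.9%.

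Genes of other enzymes that make NADPH, as wild-type IDH1 and IDH2 do, had a median of 39.4 over 10 genes, and 3 of 10 lay above 50. Over all protein-coding genes with at least 3 regions the median was 48.2, and 46.3% lay above 50. The highest were Mthfd2, of mitochondrial folate metabolism (73.9), and Nnt, the mitochondrial transhydrogenase gene (67.3), and the lowest Me1, the cytosolic malic enzyme gene (25.8), and H6pd, of the endoplasmic reticulum (26.7). Of their 101 regions, 18.8% stood above the 75th percentile and 28.7% below the 25th, beside 20.9% and 23.1% of all regions. These groups are described, not tested.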
